A study of Mus musculus with 2 samples.

Results

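The dystrophin-glycoprotein complex was followed through 8 of its genes, Dmd, Utrn, Dag1, Sgca, Sgcb, Sgcd, Dtna and Sspn, which were taken by name from the 35163 genes counted in single myofibers of the mouse. The myofibers came from the FDB (flexor digitorum brevis), a small fast-twitch muscle of the hind foot, of 1 untreated C57BL/6J mouse over 3 months of age. The methods of the study name male mice of both C57BL/6J and DBA2 background. The muscle was digested with collagenase, and single myofibers or fragments of them were placed into wells of plates and sequenced on 2 lanes by mcSCRB-seq. In this method a unique molecular identifier (UMI) lets amplified copies of a captured molecule be counted once. The cells carried 8 library indices, and each index was taken here as 1 plate. Of 763 cells, 171 passed the study's filters (over 5000 genes with a count, mitochondrial counts under 20%), and each was given the fiber type of its largest myosin heavy chain gene among Myh1, Myh2, Myh4, Myh7 and Myh8. By that rule 117 cells were fast 2X (Myh1), 51 were fast 2A (Myh2), 2 were slow (Myh7) and 1 was fast 2B (Myh4). All groups belong to 1 animal, so cells are not replicates and no p-value was computed. Limits given below are 95% limits for counting error alone.

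Dystrophin, the product of Dmd, ties the actin cytoskeleton under the muscle membrane to dystroglycan, the transmembrane receptor made from Dag1 that binds laminin in the basement membrane. The sarcoglycans and sarcospan sit beside dystroglycan in the membrane and hold the complex together, while dystrobrevin and the syntrophins form its cytoplasmic, signaling side. Utrophin, made from Utrn, is a close relative of dystrophin that in adult muscle is found mainly at the neuromuscular junction, and it is also made in blood vessels and other nonmuscle cells. Loss of dystrophin causes Duchenne muscular dystrophy, and loss of single sarcoglycans causes limb-girdle muscular dystrophies.

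The 171 cells held 51923865 UMIs, with a median of 239581 per cell and a range from 28827 to 1542996. Depth differed by fiber type, with a median of 255726 UMIs in fast 2X and 206510 in fast 2A cells. The median mitochondrial share was 5.01% in fast 2X and 6.96% in fast 2A. Of 9 marker genes of fast 2A and slow fibers other than the myosin heavy chains, 8 were at least 1.5-fold higher in fast 2A cells (Actn2, which had the most counts, Tnnt1, Tnni1, Tnnc1, Myl2, Myl3, Atp2a2 and Csrp3). Of 8 fast 2X markers 5 were at least 1.5-fold lower (Actn3, Pvalb, Mybpc2, Myoz1 and Atp2a1), while Tnnt3, with the most counts, was not. The lanes shared no full barcode, although the same 96 cell barcodes were used on both.

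Dmd was the most abundant member by far. Its 99736 counts made 1921 CPM (counts scaled to a common total per class; limits 1909 to 1933), rank 55 among all genes and 55.4% of the summed CPM of the 8 members. Sgcd, which encodes delta-sarcoglycan, followed at 560 CPM (rank 179). Sgca, encoding alpha-sarcoglycan, reached 273 CPM, Dag1 219 CPM and Dtna, encoding alpha-dystrobrevin, 204 CPM. Sspn (sarcospan) at 115 CPM, Sgcb (beta-sarcoglycan) at 99.7 CPM and Utrn at 73.9 CPM formed the lower end, with Utrn at rank 1842. The limits of these neighbors in CPM did not overlap.

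A UMI counts a captured molecule once, so the order above rests on CPM that was not divided by gene length. Divided by length, the order changed, and those scales are given as a description only. On the scale of CPM per kb of merged exons, Sgca was highest at 157, before Dmd at 80.7 and Sgcd at 67.9, and Utrn was lowest at 4.32. Dag1 stood at 34.5, Sgcb at 24.6, Sspn at 23.0 and Dtna at 12.1 on this scale. On the scale of CPM per kb of the whole gene span, Sgca again led at 20.1, whereas Dmd stood at 0.85, Sgcd at 0.51 and Utrn at 0.15. The barcode is carried by the reverse transcription primer, and whether molecules mapped to introns entered the deposited counts is not given in the sources used here. In GRCm38 with GENCODE M21, Dmd covers 2257 kb of chromosome X (82948870 to 85206141, plus strand) and Sgcd 1093 kb of chromosome 11 (46896253 to 47988969, minus strand). Sgca lies on the same chromosome from 94962791 to 94976327. Utrn (chromosome 10, 12382188 to 12869365), Dag1 (chromosome 9, 108204634 to 108263958) and Sgcb (chromosome 5, 73632749 to 73647790) are on the minus strand as Sgca is. Dtna (chromosome 18, 23415135 to 23659715) and Sspn (chromosome 6, 145931641 to 145965223) are on the plus strand.

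No stretch of 66 bases, the length of the cDNA read, in the exons of any of the 8 members was shared with the exons of another gene. Only spliced transcripts were compared, so this says nothing of molecules mapped to introns. Genes that overlap a member in the annotation held at most 85 counts each where they were in the table.

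The promoter of Dmd, the member that dominates the list, is shown because Dmd makes up most of the summed level of the list. It is the RefSeq sequence of the 250 bases before the annotated start, chrX:82948620-82948869 on the plus strand of GRCm38.p6, with the CArG box in capitals.
Dmd promoter: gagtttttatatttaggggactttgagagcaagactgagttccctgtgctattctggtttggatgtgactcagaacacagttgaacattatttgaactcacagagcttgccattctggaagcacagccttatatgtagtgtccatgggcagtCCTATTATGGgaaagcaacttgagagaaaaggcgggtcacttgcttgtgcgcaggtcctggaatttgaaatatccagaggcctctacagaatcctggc
The CArG box, the motif bound by serum response factor, begins 98 bases before the start. Searched on both strands, it was present in 482 of 32851 promoter windows of the same length (1.47%). The window also held 2 E-boxes (CANNTG), the motif of the myogenic regulatory factors, which 66.2% of all windows held at least once. These matches describe the letters of the window and no binding was measured.

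Dmd was detected in all 171 cells. In fast 2X cells its level ran from 302 to 4922 CPM with a median of 1547, and in fast 2A cells from 388 to 3974 CPM with a median of 1972. The fast 2A cells were shifted upward within the same range, with 36 of 51 above the fast 2X median and 51 of 51 inside the fast 2X range. The spread between cells was far larger than counting error, with a coefficient of variation of 44.4% in fast 2X cells against 6.81% from counting. One slow cell, with 2863 CPM of Dmd, ranked 9 of 171, and the other, with 1053 CPM, ranked 148.

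Utrn was detected in 162 of 171 cells. It ran from 0 to 1263 CPM in fast 2X cells (median 62.5) and from 0 to 222 CPM in fast 2A cells (median 56.5). The 9 cells without a Utrn count had between 33413 and 121286 UMIs, at which 3 counts correspond to 24.7 to 89.8 CPM, so in the shallower of them a level near the median could have gone undetected at this depth. When all cells were thinned to 28827 UMIs, Utrn was detected in 135 cells (78.9%). The coefficient of variation of Utrn was 171% in fast 2X cells and 66.2% in fast 2A cells, where counting alone gives 32.3%, and 2 fast 2X cells reached 914 and 1263 CPM.

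Dag1, the receptor to which dystrophin binds, was detected in all 171 cells. It ran from 70.9 to 591 CPM in fast 2X cells (median 207) and from 26.3 to 404 CPM in fast 2A cells (median 205), so that the medians nearly coincided.

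The 3 sarcoglycans were all slightly lower in fast 2A cells by the median. Sgca had a median of 292 CPM in fast 2X cells (range 50.3 to 616) and 237 CPM in fast 2A cells (range 67.3 to 531). For Sgcb the medians were 97.9 CPM (range 0 to 267) and 90.1 CPM (range 24.9 to 305), and for Sgcd they were 511 CPM (range 138 to 1510) and 486 CPM (range 225 to 956). The ranges overlapped almost completely in each case, with at least 50 of 51 fast 2A cells inside the fast 2X range.

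Dtna had a median of 182 CPM in fast 2X cells (range 25.4 to 946) and 216 CPM in fast 2A cells (range 52.6 to 476). Sspn had a median of 99.5 CPM in fast 2X cells (range 0 to 331) and 86.5 CPM in fast 2A cells (range 13.7 to 211). Dtna was the only member besides Dmd for which most fast 2A cells, 34 of 51, lay above the fast 2X median.

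**Figure D1:**
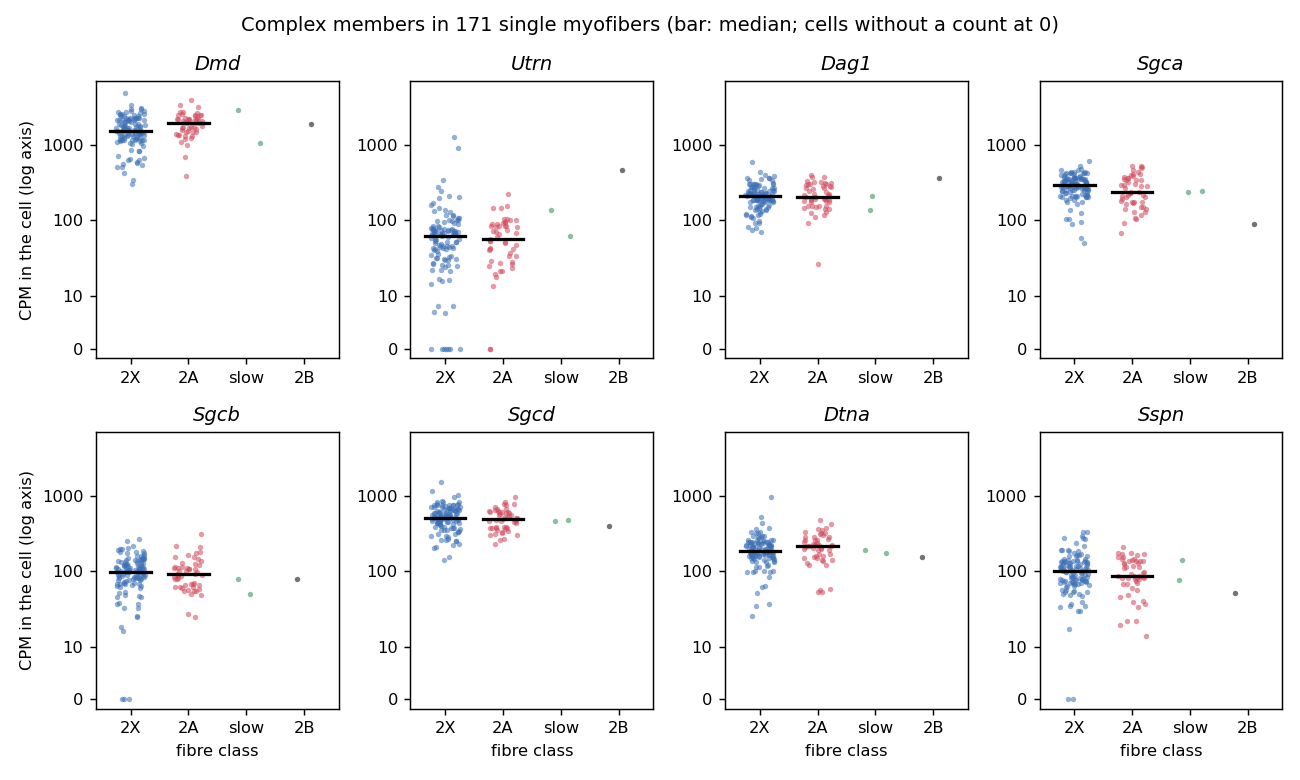
CPM of each member in each of the 171 myofibers, on a log axis with cells without a count placed at 0, by fiber class (117 fast 2X, 51 fast 2A, 2 slow and 1 fast 2B cells); bars are medians. The fast 2A cells lie within the fast 2X range for nearly every member, and single fast 2X cells reach 1263 CPM of Utrn.

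The comparison of fast 2A with fast 2X cells asks whether the complex differs between the main fiber types of this muscle. None of the 8 members differed by 1.5-fold or more in summed CPM. Of 8649 genes with at least 500 summed counts, 9.87% did, 2.57% higher and 7.31% lower in fast 2A cells. Summed over the list, the members made 3438 CPM in fast 2X and 3538 CPM in fast 2A cells, a log2 ratio of 0.04 (limits 0.03 to 0.06), and the median of the 8 log2 ratios was −0.13. The median over all genes tested was −0.09, with the 10th and 90th percentiles at −0.51 and 0.30.

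Dmd and Dtna were higher in fast 2A cells. Dmd was 1865 CPM in fast 2X and 2075 CPM in fast 2A, a log2 ratio of 0.15 (limits 0.13 to 0.17). Dtna was 197 and 229 CPM, a log2 ratio of 0.22 (limits 0.15 to 0.28). This direction was the same in each of 16 alternative calculations, with log2 ratios from 0.13 to 0.35 for Dmd and from 0.08 to 0.33 for Dtna. Within plates holding at least 3 cells of both types, Dtna was higher in fast 2A cells in 7 of 7 plates (log2 0.03 to 0.47) and Dmd in 6 of 7 (−0.21 to 0.93).

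Utrn and the sarcoglycans were lower in fast 2A cells. Utrn was 75.4 CPM in fast 2X and 60.0 CPM in fast 2A, a log2 ratio of −0.33 (limits −0.45 to −0.21). Sgca was 284 and 240 CPM (log2 −0.25), Sgcb 104 and 88.2 CPM (log2 −0.24) and Sgcd 576 and 517 CPM (log2 −0.16). Within plates, Sgcb and Sgcd were lower in 6 of 7, and Sgca and Utrn in 5 of 7. All 4 were lower in each of 16 alternative calculations. Their log2 ratios there ran from −0.62 to −0.02 for Utrn, −0.31 to −0.11 for Sgca, −0.28 to −0.03 for Sgcb and −0.29 to −0.04 for Sgcd. The lanes differed for Utrn, with a log2 ratio of −0.02 on lane 1 and −0.62 on lane 2, so that on lane 2 alone 1 of 8 members passed 1.5-fold, where 13.9% of all genes did.

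Dag1 was 219 CPM in fast 2X and 220 CPM in fast 2A (log2 0.01, limits −0.05 to 0.07), and 10 of 16 alternatives kept the sign. Sspn was 118 and 109 CPM (log2 −0.11, limits −0.20 to −0.02). It was lower in fast 2A cells in 6 of 7 plates and in 15 of 16 alternatives, and its sign turned with scaling by a trimmed mean of log ratios (TMM), under which it was 0.01. The TMM scaling placed the median of all genes at 0.02 in place of −0.09.

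**Figure D2:**
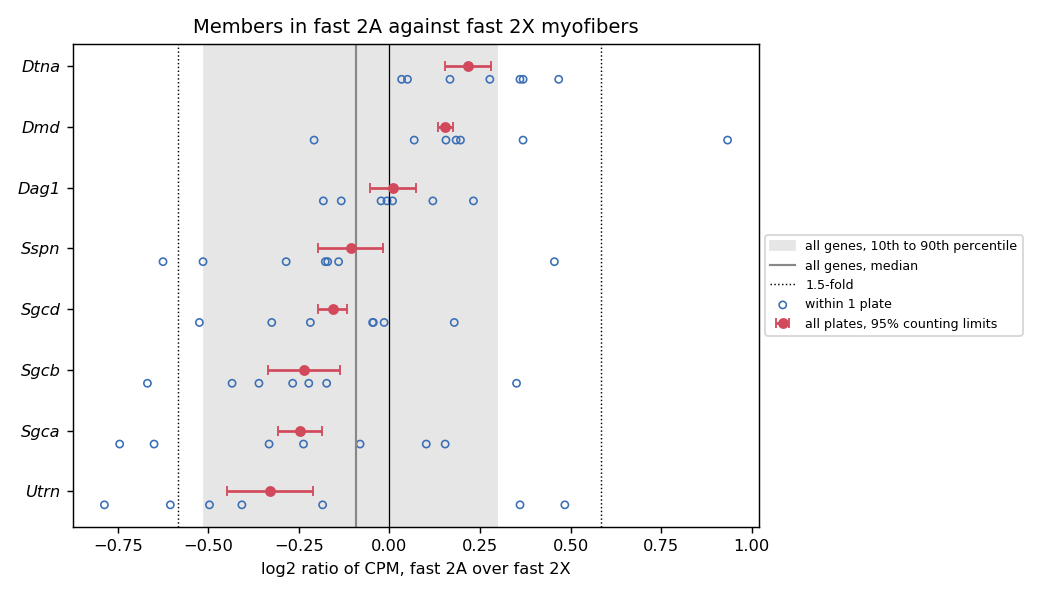
Log2 ratio of CPM, fast 2A over fast 2X, of each member over all plates with 95% counting limits (filled circles) and within each of 7 plates (open circles), drawn over the range of all genes tested (gray, 10th to 90th percentile; gray line, median) and the 1.5-fold limits (dotted). All 8 filled circles lie inside the gray band, and the plates scatter more widely than the counting limits.

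Dmd was compared with its relative Utrn as the number of Dmd counts per Utrn count, a ratio in which a cell's depth cancels. Over the 171 cells the ratio of summed counts was 26.0 (limits 25.2 to 26.9), and deep cells weigh more in such sums. Divided by length, as a description only, it was 18.7 on the scale of CPM per kb of exons and 5.61 per kb of gene span. Dmd exceeded Utrn in 170 of 171 cells. The exception was a fast 2X cell with 424 CPM of Dmd and 1263 CPM of Utrn.

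The ratio of Dmd to Utrn was 24.7 in fast 2X cells (limits 23.8 to 25.7) and 34.6 in fast 2A cells (limits 32.1 to 37.3). In the 2 slow cells together it was 33.6 (limits 24.9 to 46.4) and in the fast 2B cell 4.06 (limits 3.32 to 4.99). Between fast 2A and fast 2X the ratio differed 1.40-fold (limits 1.29 to 1.52), a log2 difference of 0.48. On lane 1 the ratios were 29.2 in fast 2X and 32.9 in fast 2A, and on lane 2 they were 21.9 and 37.2. Within plates the log2 difference ran from −0.29 to 0.87 and was above 0 in 6 of 7. It was 0.33 without the 10% of cells that held the most markers of other cell types. On lane 1 alone it was 0.17, and with all cells thinned to the shallowest it was 0.28. The medians over single cells of the log2 ratio of Dmd to Utrn were 4.66 in fast 2X and 4.85 in fast 2A. A small constant was added to both counts of a cell, so cells without a Utrn count are included.

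**Figure D3:**
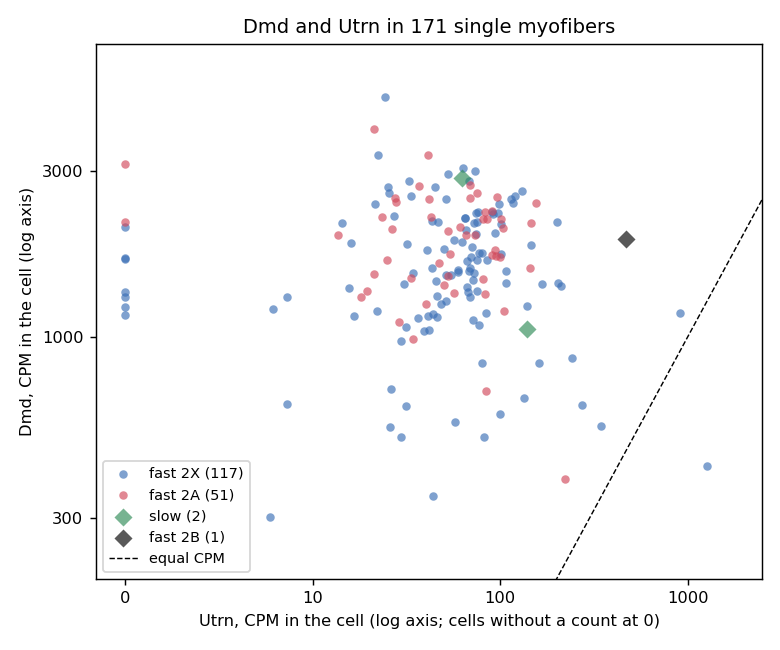
Dmd against Utrn in each of the 171 myofibers, in CPM on log axes, with cells without a Utrn count at 0 and the line of equal CPM dashed. Of all cells 1 lies below the line, and the fast 2B cell (black diamond) lies to the right of nearly all others at 471 CPM of Utrn.

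The cells of highest Utrn also had high sums of genes taken as markers of other cell types. The fast 2X cell with 1263 CPM of Utrn (152 counts) held 7344 CPM of 47 summed markers of endothelial, smooth muscle and pericyte, fibroblast, Schwann, satellite, blood and immune cells. The next, with 914 CPM of Utrn (36 counts), held 17947 CPM of these markers. The median over the 171 cells was 534 CPM for the same markers. The lowest of the 5 cells of highest Utrn had 4083 CPM of these markers.

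Across the 171 cells Spearman's rho between Utrn and the summed markers was 0.38. It was 0.33 for smooth muscle and pericyte, 0.30 for endothelial and 0.30 for fibroblast markers, and 0.12 for 11 genes of the neuromuscular junction. For Dmd the rho with the summed markers was −0.02, and for the other 6 members it lay between −0.14 and 0.07. These cells share an animal and a digestion, and rho is given as a description. In fast 2X cells these markers summed to 657 CPM and in fast 2A cells to 558 CPM. Of the 47 markers 31 were lower in fast 2A cells, where 63.1% of all genes tested were lower. Without the 10% of cells richest in these markers the log2 ratio of Utrn was −0.18. Among markers with enough counts, Flt1 and Vwf of 4 endothelial markers were at least 1.5-fold lower in fast 2A cells. So were Acta2 and Myh11 of 5 smooth muscle and pericyte markers, where 7.31% of all genes tested were. None of 5 fibroblast and 2 Schwann cell markers passed. Satellite cell, leukocyte and erythrocyte markers were too few in counts. The markers with the most counts were Tek, Abcc9, Dcn, Pmp22, Pax7, Csf1r and Hbb-bs in the order of these lists. Abcc9 alone held 8283 of the 33935 marker counts of the 171 cells and was detected in 169 of them. Tek, with 4724 counts, was detected in 164. Whether these counts came from other cell types or from the myofibers themselves was not tested. Hba-a2 was the only marker without a count in fast 2X cells, and none was at 0 in fast 2A cells.

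The fast 2B cell had 121 Utrn counts, rank 3 of 171, and 1910 CPM of Dmd, rank 67. Its fibroblast and Schwann cell markers each ranked 2 of 171, with Dcn, a fibroblast proteoglycan, at 1502 CPM where the median cell had 7.52. Its Sgca level of 89.5 CPM ranked 167, whereas Dag1 at 362 CPM ranked 10. It is a single cell, and no value of it stands for fast 2B fibers. In the slow cells Utrn was 62.7 and 139 CPM, on 30 and 14 counts.

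The cells left out by the filters gave another ratio of Dmd to Utrn. In 592 cells left out, Dmd stood at 5.57 per Utrn count, 4.67-fold below the cells that passed (limits 4.37 to 4.98). Because mitochondrial RNA filled much of these cells, levels were compared as CPM of the non-mitochondrial counts. Utrn was 78.6 CPM in cells that passed and 194 CPM in cells left out (log2 1.30), while Dmd was 2043 and 1079 CPM (log2 −0.92). The Utrn counts of the cells left out were concentrated, since 299 of the 592 cells had any and 31 cells held at least 50% of the 1435 counts. Depth was concentrated too. The 111 cells left out for their mitochondrial share alone held 4127723 of 7406303 non-mitochondrial UMIs and 1011 of the Utrn counts.

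The other 6 members were also lower in the cells left out, by log2 ratios from −0.64 for Sgcb to −0.30 for Sgca. Dtna was 217 and 142 CPM (log2 −0.61), Sgcd 596 and 410 CPM (log2 −0.54), Dag1 233 and 173 CPM (log2 −0.43) and Sspn 122 and 96.8 CPM (log2 −0.34). In all, 4 of 8 members passed 1.5-fold, 1 higher and 3 lower, where 39.3% of 9747 genes passed, 26.4% higher and 12.9% lower. The median log2 ratio over all these genes was 0.02, and the median of the members was −0.49.

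The levels differed with the reason for leaving a cell out. The 111 cells left out for their mitochondrial share alone had 1063 CPM of Dmd and 245 CPM of Utrn. The 107 left out for too few genes alone had 1683 CPM of Dmd and 80.5 CPM of Utrn (limits 55.4 to 113), the latter close to the 78.6 CPM of the cells that passed. Whole myofibers and fragments left out had overlapping limits for Utrn, at 196 CPM (limits 185 to 208) and 185 CPM (limits 165 to 207).

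Markers of other cell types were also higher in the cells left out. Their summed level was 695 CPM in cells that passed, with single cells from 226 to 18678 CPM, and 2507 CPM in cells left out, with single cells from 0 to 37267 CPM. Of 47 markers 46 were higher, where the median log2 ratio over the 9747 genes compared was 0.02. Endothelial markers were higher 4.89-fold and fibroblast markers 3.79-fold in sum, and none of the 47 was at 0 in either group. Ordered by these markers into 4 groups of 148 cells, the cells left out had 68.2 CPM of Utrn in the lowest group (limits 55.0 to 83.6), 85.2 in the second, 149 in the third and 373 in the highest (limits 350 to 398). Dmd ran the other way over the same groups, from 1376 to 796 CPM. Among the cells that passed, Utrn ran from 56.8 CPM in the lowest of 4 such groups (limits 51.9 to 62.1) to 112 CPM in the highest (limits 106 to 118), and Dmd from 1687 to 2149 CPM. In the lowest group the ratio of Dmd to Utrn was 29.7 in cells that passed and 20.2 in cells left out, and in the highest it was 19.3 and 2.13.

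**Figure D4:**
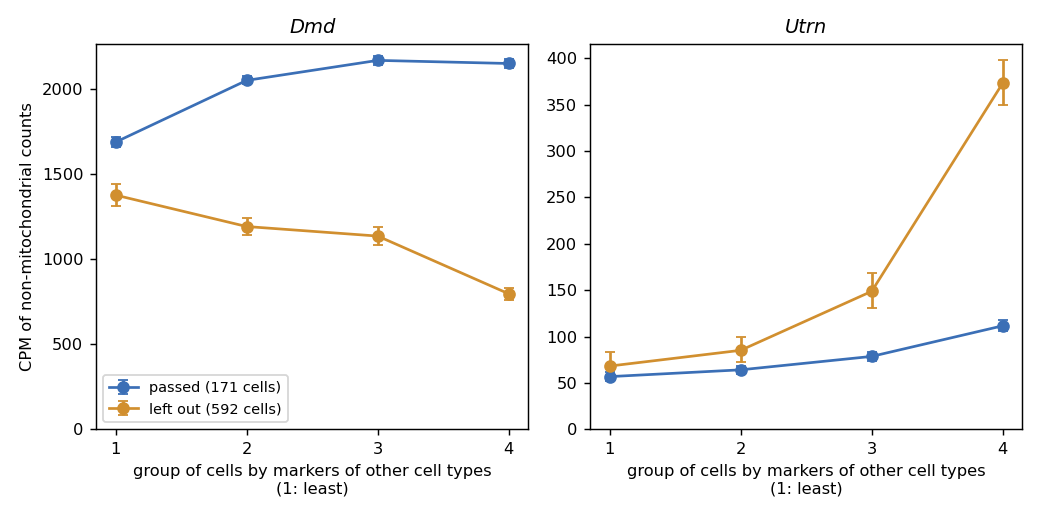
Dmd and Utrn in CPM of non-mitochondrial counts, with 95% counting limits, in 4 groups of the 171 cells that passed and of the 592 left out, ordered by the summed CPM of 47 markers of other cell types. Utrn in the cells left out climbs from 68.2 to 373 CPM across the groups while Dmd drops from 1376 to 796 CPM.

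The median rho between members was near that of all gene pairs, while several pairs of members lay above the 90th percentile of all pairs. Each of these pairs had a lower rho after all cells were thinned to equal depth, and that percentile is of cells not thinned. Over the 28 pairs of members the median Spearman's rho of CPM across 171 cells was 0.08, with a range from −0.14 to 0.64. For all pairs of genes with a count in at least 90% of cells the median was 0.04, with the 10th and 90th percentiles at −0.11 and 0.20. The cells share an animal and differ in depth, so these values are descriptions.

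Dmd and Sgcd formed the closest pair, at 0.64 over all cells, 0.73 within fast 2X, 0.55 within fast 2A and 0.56 after thinning. Dmd with Dtna gave 0.38, and Dmd with Dag1, its direct partner in the complex, 0.30, and after thinning these were 0.23 and 0.21. Sgca and Sgcb, which assemble in the same subcomplex as Sgcd, gave 0.23 with each other (0.09 after thinning) but −0.05 and 0.07 with Sgcd. Dmd and Utrn gave 0.00. Dmd and Sgcd also had the highest rho with the UMI total of the cell, 0.33 and 0.28. Dag1 and Sgcb had the lowest rho with the mitochondrial share, −0.42 and −0.37.

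**Figure D5:**
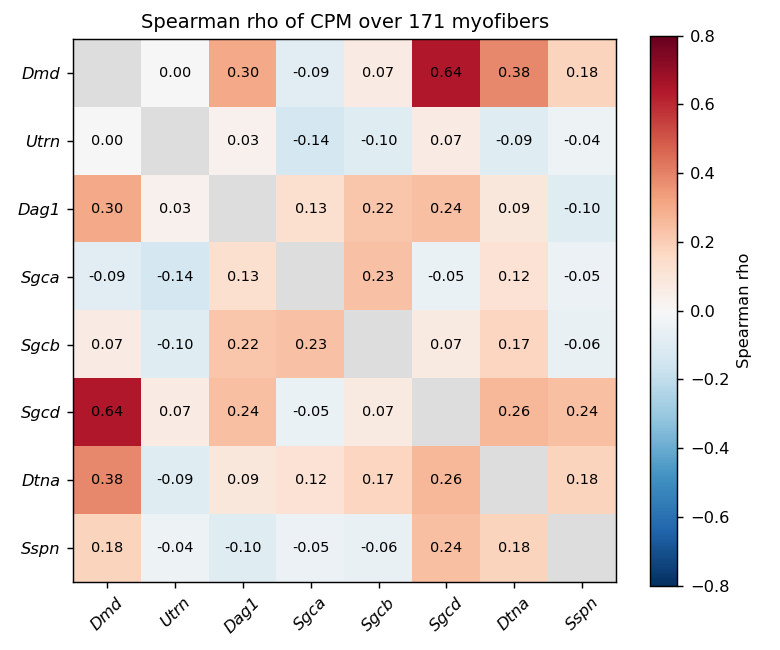
Spearman's rho of CPM between members over 171 myofibers, printed in each square (red positive, blue negative, gray the diagonal). The pair of Dmd and Sgcd at 0.64 stands apart, and the row of Utrn holds no value above 0.07.

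Among 4138 genes detected in at least 90% of cells, those most like Dmd were Agbl1 (rho 0.75), Zbtb20 (0.75), Malat1 (0.70), Fgf13 (0.69) and Mlip (0.67). Malat1 is a long noncoding RNA kept in the nucleus, and Mlip encodes a lamin-interacting protein of muscle. Of these 5 genes, 4 span at least 250 kb, where the median gene compared spans 34.6 kb. The median rho of Dmd was 0.12 with the 1052 genes spanning 100 kb or more and 0.02 with shorter genes. For Utrn it was 0.14 and −0.01, and for Sgca −0.07 and 0.07. Those most like Utrn were Nrxn3 (0.43), Acvr1 (0.39), Dlg2 (0.39), Ccdc57 (0.38) and Ralgapa2 (0.38), and their own rho with the summed markers of other cell types lay between 0.33 and 0.48.

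Of 11 partners of the complex outside the list, 9 had enough counts to compare fiber types, and 1 passed 1.5-fold, Sntb1 (beta-1-syntrophin), lower in fast 2A cells at 21.8 and 12.9 CPM (log2 −0.75). The median log2 ratio of the 9 was −0.18. Of all genes tested 9.87% passed 1.5-fold, 7.31% lower in fast 2A cells.

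Of 17 genes in the table for the enzymes that build the laminin-binding sugar chains of dystroglycan, 11 had enough counts, and 2 passed 1.5-fold, both lower in fast 2A cells. B3galnt2 was 37.0 and 22.5 CPM (log2 −0.72) and Rxylt1 20.9 and 13.3 CPM (log2 −0.65). Among all genes tested 7.31% were at least 1.5-fold lower. Dpm1 was not analysed here.

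Of laminins and laminin receptors 7 genes had enough counts, and Lama5 was past 1.5-fold and lower in fast 2A cells (24.8 and 13.5 CPM, log2 −0.88). Lama2, the laminin chain of the muscle basement membrane, had the most counts, at 359 and 309 CPM. Of 11 neuromuscular junction genes Chrne, the adult subunit of the acetylcholine receptor, was past 1.5-fold and lower in fast 2A cells (57.6 and 32.1 CPM, log2 −0.84). Musk, the receptor kinase of the junction, had the most counts, at 166 and 145 CPM. Beside the 1 gene lower in each of these 2 lists, 7.31% of all genes tested were at least 1.5-fold lower.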

How the data were processed

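Single myofiber libraries of the FDB were prepared by mcSCRB-seq, and per the labels and methods the authors used zUMIs 2.2.3, with STAR 2.5.4b for mapping to GRCm38 and Rsubread 1.28.1 for counting. The deposited table holds raw UMI counts of 35163 genes in 763 cells. Lines of cell facts above them give lane, library index and cell type, and each index was taken as 1 plate. Cells were kept as in the study (more than 5000 genes, under 20% mitochondrial counts). Wells were sorted singly and no doublet caller was run. Counts were summed per fiber class, scaled to CPM and given exact Poisson limits. Ratios have exact conditional binomial limits. TMM trimmed 30% of log ratios and 5% of levels. Scripts used Python 3.11.15, numpy 2.4.6, pandas 2.3.3 and scipy 1.17.1. The calculation of the ratios was checked on simulated pooled Poisson counts, which hold no variation between cells. Both GEO samples are lanes of 1 animal and not biological replicates. The members and gene lists were chosen with earlier results of these data known. Named genes outside the members are those with at least 500 counts and a 1.5-fold ratio, or the most counts of a list. For likeness they are the 5 of highest rho. Alternatives covered scaling, depth, filters, classes, lanes and single cells. The genes with the most counts in 2 of the lists are not reported here.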

Additional observations from a re-analysis of the deposited data

How the results depend on the processing

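No paired analysis was possible because both samples are lanes of 1 animal in 1 group and no test was run. Fiber types were compared within plates, where the median log2 difference in Dmd per Utrn was 0.57. Of the values between fast 2A and fast 2X, the log2 difference in Dmd per Utrn stayed above 0 under every alternative run; it was 0.64 with the mean of CPM over cells, 0.28 with cells thinned to the shallowest (1 random draw) and 0.33 without the 10% of cells richest in markers of other cell types, an alternative chosen after seeing the data, and from 0.17 to 0.77 on single lanes. Leaving out any 1 cell gave 0.41 to 0.54. The median log2 ratio of the members stayed below 0; it was −0.020 with TMM, −0.059 with the mean over cells, −0.055 after thinning and from −0.13 to −0.050 on single lanes. The log2 ratio of the summed members stayed above 0, at 0.15 with TMM, 0.076 without mitochondrial genes in the total, 0.10 and 0.13 with the mean and median over cells, 0.091 after thinning, 0.018 with the mitochondrial ribosomal RNAs left out of the filter, 0.064 at a 10% mitochondrial maximum and 0.012 to 0.057 on single lanes. Members past 1.5-fold numbered 0 to 1 on single lanes and 1 (Utrn) at a smaller threshold of 0.32 on the log2 scale. The share of all genes past the fold was 16.4% with the median over cells, 37.4% without a minimum of counts, 31.3% at that smaller threshold and 2.51% at 2-fold. Of the genes past 1.5-fold, 26.0% were higher in fast 2A cells, and 49.3% with TMM. The log2 difference in Dmd per Utrn between cells that passed and cells left out, 2.22, was 2.08 against fragments, 2.58 against cells left out for the mitochondrial share alone and 0.31 against those left out for few genes alone, all chosen after seeing the data. Depth limits Utrn most, with 715 counts in all fast 2A cells.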
